A study of Homo sapiens with 4 samples.

Results

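The natural antisense RNAs of T98G cells were examined as a class, beside the genes on the opposite strand after which they are named. Members were all rows of the deposited count table whose symbol ends in -AS and a number and whose counts over the 4 libraries summed to 20 or more, so they were chosen by summed counts. This gave 504 antisense RNAs out of 20913 rows. A further 49 rows carried such a symbol but fell under 20 counts. BNC2-AS1 and NRXN2-AS1 lay just inside with 20 counts each, and CFLAR-AS1, EGFR-AS1 and FAM83C-AS1 just outside with 19. The summed counts that chose the members did not use the comparison between groups. Where the symbol without its suffix was itself a row, that gene was taken as the sense partner: 471 antisense RNAs had a partner row, 33 had none, and the partners were 466 genes because 5 were shared by more than 1 antisense RNA. The filter on low counts left 458 of the 504 antisense RNAs and 457 of the 466 partners in the test, and both genes of 421 pairs.

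The study used T98G, an established line from a human glioblastoma. It compared cells with a vector and cells overexpressing LGP2, a double-stranded RNA-binding helicase encoded by DHX58, with 2 libraries per group, numbered 2 and 3 in the labels. The column names of the LGP2 libraries in the count table contain the word flag, which may denote a tagged LGP2. No time, dose, clone or other genotype is given. The growth text in the labels names 293T cells while the titles and the cell line field name T98G. The labels do not state whether the replicates were separate cultures. The p-values therefore reflect the spread among these libraries alone, and that spread may be technical. Library totals ran from 56033379 to 63932198 counts. DHX58 had 377 and 571 counts with vector and 30509 and 34045 with LGP2, a log2 fold change of 6.09 (SE 0.24). Of the 10 astroglial and mesenchymal glioma markers, 9 were rows and 7 reached 1 CPM (counts scaled to a common library size with TMM), led by VIM and CD44. GFAP stayed under 1 CPM in the group means (0.362 and 0.600 CPM), NES was near 0 at 0.0823 and 0.320 CPM, and of the 4 HEK293 markers only PAX2 was a row, also under 1 CPM. In bulk RNA, fewer cells of a type and less RNA per cell cannot be told apart.

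A natural antisense RNA is transcribed from the strand opposite to another gene. Many start close to the start of the sense gene and run away from it, so that a pair shares a promoter region, while others overlap the sense gene's end or lie inside it. Some are known to act on their sense gene in cis, through chromatin, transcriptional interference or RNA duplexes, and others act elsewhere in the cell. Short-lived antisense and promoter transcripts are degraded in the nucleus by the RNA exosome.

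Promoter windows of 300 bases (250 before the annotated start and 50 from it on) were read from RefSeq on GRCh38.p14, the first window listed for each gene. They were found for 387 of the 504 antisense RNAs and 387 of the partners. The 6 windows below belong to the most abundant antisense RNA (FGD5-AS1), the one highest above its sense partner per length (ZNF667-AS1), the one with the smallest p (TMEM51-AS1), the largest negative and positive fold changes at 1 CPM or more (LIMD1-AS1 and STARD4-AS1), and a close divergent pair (COA6-AS1). They were chosen after their values were seen. Each is written 5′ to 3′ on the strand of the antisense RNA, with capitals from the RefSeq start on. The windows are chr3:14948392-14948691 on the minus strand, chr19:56477624-56477923 on the plus strand, chr1:15152415-15152714 on the minus strand, chr3:45688833-45689132 on the minus strand, chr5:111511976-111512275 on the plus strand and chr1:234373354-234373653 on the minus strand, in the order printed.
FGD5-AS1: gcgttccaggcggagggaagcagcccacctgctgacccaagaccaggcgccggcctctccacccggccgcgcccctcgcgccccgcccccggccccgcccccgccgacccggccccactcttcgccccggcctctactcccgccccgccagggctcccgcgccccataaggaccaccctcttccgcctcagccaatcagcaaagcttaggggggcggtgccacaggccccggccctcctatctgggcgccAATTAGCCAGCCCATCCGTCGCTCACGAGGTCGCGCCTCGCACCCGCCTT
ZNF667-AS1: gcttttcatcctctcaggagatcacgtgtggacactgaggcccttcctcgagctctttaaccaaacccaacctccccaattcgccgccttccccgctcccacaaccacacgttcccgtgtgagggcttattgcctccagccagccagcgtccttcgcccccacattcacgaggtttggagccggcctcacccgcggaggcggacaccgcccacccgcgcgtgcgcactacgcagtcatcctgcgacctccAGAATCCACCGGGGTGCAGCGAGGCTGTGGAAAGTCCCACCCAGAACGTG
TMEM51-AS1: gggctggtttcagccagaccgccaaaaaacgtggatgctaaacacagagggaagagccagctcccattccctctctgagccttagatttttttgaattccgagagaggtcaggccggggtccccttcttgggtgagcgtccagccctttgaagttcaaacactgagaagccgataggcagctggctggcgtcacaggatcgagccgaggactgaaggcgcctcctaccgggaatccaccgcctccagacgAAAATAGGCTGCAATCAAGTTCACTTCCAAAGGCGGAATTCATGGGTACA
LIMD1-AS1: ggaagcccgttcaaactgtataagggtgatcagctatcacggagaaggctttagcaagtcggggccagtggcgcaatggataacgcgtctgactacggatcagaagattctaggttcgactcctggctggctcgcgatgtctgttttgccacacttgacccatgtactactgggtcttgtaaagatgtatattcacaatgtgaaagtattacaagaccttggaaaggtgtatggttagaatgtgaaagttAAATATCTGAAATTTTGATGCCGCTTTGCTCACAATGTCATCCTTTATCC
STARD4-AS1: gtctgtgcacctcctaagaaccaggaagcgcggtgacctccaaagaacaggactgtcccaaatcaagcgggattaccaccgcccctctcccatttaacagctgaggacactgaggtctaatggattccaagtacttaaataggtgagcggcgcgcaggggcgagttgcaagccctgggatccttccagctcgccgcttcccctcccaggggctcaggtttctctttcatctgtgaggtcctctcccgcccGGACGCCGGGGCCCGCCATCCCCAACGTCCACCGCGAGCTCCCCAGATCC
COA6-AS1: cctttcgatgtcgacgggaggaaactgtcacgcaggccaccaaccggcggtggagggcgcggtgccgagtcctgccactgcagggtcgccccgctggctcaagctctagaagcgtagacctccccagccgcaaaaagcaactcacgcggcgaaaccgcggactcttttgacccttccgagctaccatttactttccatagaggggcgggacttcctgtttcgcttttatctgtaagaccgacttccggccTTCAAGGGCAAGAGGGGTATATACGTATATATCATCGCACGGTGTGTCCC

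These windows differed in base content. The FGD5-AS1 window held 32 CG dinucleotides, that of COA6-AS1 26, ZNF667-AS1 24, STARD4-AS1 18, TMEM51-AS1 14 and LIMD1-AS1 11. Over all windows found, the median was 22 CG dinucleotides for antisense RNAs (quartiles 11 and 32), 26 for sense partners (16 and 35) and 14 for all 27305 RefSeq windows (3 and 28). The TATAAA motif, searched on both strands, was in 7.49% of antisense windows, 6.46% of partner windows and 12% of all windows. CCAAT was in 31.8%, 33.6% and 35.7%, and is in the FGD5-AS1 and ZNF667-AS1 windows above. These are descriptions of the letters and not of bound factors. The antisense and sense windows overlapped in 84 of the 328 pairs with both windows on opposite strands (25.6%).

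The position of each pair was read from GENCODE 29 on GRCh38, and the counting may have used another annotation. Distances between starts are from GENCODE 29. Of the printed windows, only that of STARD4-AS1 has its RefSeq start at the GENCODE 29 start of the gene. GENCODE placed 503 of the 504 antisense RNAs, 48 of them through an older symbol. Head-to-head pairs, whose starts face away from each other, were the most frequent arrangement with 252 pairs, of which 205 overlapped and 47 lay apart. Their starts were a median of 692 bases apart, and 163 were within 1000 bases. A further 94 antisense RNAs lay inside the sense gene, 93 pairs overlapped tail to tail, 1 lay tail to tail apart, and in 30 pairs the sense gene lay inside the antisense gene. The other 34 antisense RNAs had no placed partner. Exons of 379 antisense RNAs (75.3%) lay under exons of a gene on the opposite strand, with a median of 13.5% of their exon bases, and 46 had exons that overlapped an exon on their own strand. In 328 of 470 pairs, the antisense RNA and its partner shared exon bases with each other. Whether counting used strand is not given in the sources used here, so the reads of such genes cannot be told apart with certainty.

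The 504 antisense RNAs took a small share of the counts in these libraries, which came from an mRNA kit. Their share of all counts was 0.155% and 0.179% with vector and 0.168% and 0.175% with LGP2, while their partners took 3.95%, 3.76%, 3.83% and 3.77% in the same order. The ranges of the groups overlapped for both. The median antisense RNA had 209 counts over the 4 libraries, 274 of the 504 were under 1 CPM on average, and 33 reached 10 CPM.

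A few antisense RNAs stood far above the rest. FGD5-AS1 (chr3:14920347-14948424, minus strand) was the most abundant, at 182 and 217 CPM with vector and 198 and 199 CPM with LGP2, and FGD5 was no row of the table. OIP5-AS1 (chr15:41283990-41309737, plus strand), known as cyrano and for its site for the microRNA miR-7, had 90.5 and 120.0 CPM against 108.0 and 122.0 CPM. The groups overlapped for both, and the log2 fold changes were -0.01 (SE 0.15) for FGD5-AS1 and 0.12 (SE 0.17) for OIP5-AS1. MIF-AS1 had 37.8 and 46.4 CPM against 37.2 and 45.5 CPM, ZNF667-AS1 31.8 and 33.3 against 34.2 and 38.5, TP73-AS1 23.3 and 32.1 against 26.9 and 30.5, and AGAP2-AS1 24.3 and 23.7 against 28.6 and 27.2 CPM. For ZNF667-AS1 and AGAP2-AS1 both LGP2 libraries were above both vector libraries, and for MIF-AS1 and TP73-AS1 the groups overlapped. None of the 6 had a log2 fold change beyond 0.22, and every one of their 95% intervals excluded a 2-fold change. Of the exon bases of MIF-AS1, 46.5% lie under exons on the other strand, where MIF, a macrophage cytokine, had a mean of 546 CPM, and for AGAP2-AS1 the share is 57.7%.

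Per kilobase of exon, most antisense RNAs were below their sense partner. Over the 470 pairs with a length for both genes, the median antisense level was 10.0% of the sense level (quartiles 2.34% and 53.5%). The sense gene was 10 times or more above the antisense RNA in 235 pairs. The antisense RNA was above its partner in 77 pairs by the mean (16.4%) and in 55 pairs in all 4 libraries (11.7%), and 10 times or more above it in 17 pairs. The median ratio was 5.5% for antisense RNAs inside the sense gene, 8.81% for overlapping head-to-head pairs, 16.4% where the sense gene lay inside the antisense gene, 16.8% for overlapping tail-to-tail pairs and 24.3% for head-to-head pairs that lay apart. These levels were not tested between arrangements.

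**Figure D1:**
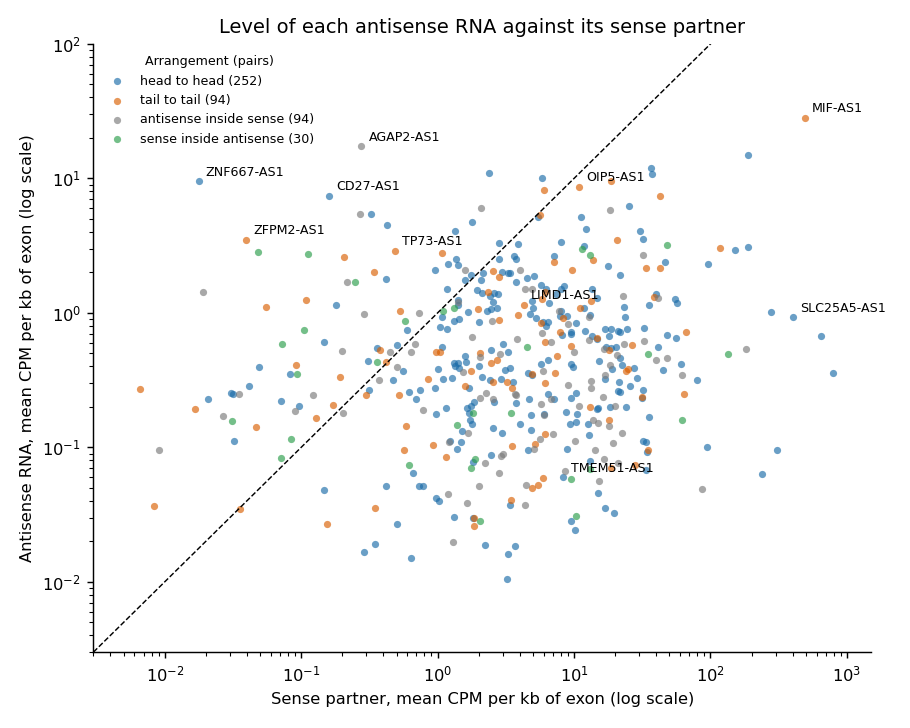
Mean level of each antisense RNA (vertical, CPM per kb of exon, log scale) against its sense partner (horizontal, the same unit) over the 4 libraries, for 470 pairs coloured by arrangement, with the line of equal levels dashed. Most points lie below the line, and 77 lie above it, with ZNF667-AS1 the farthest.

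The pairs above that line held several sense genes at very low levels. ZNF667-AS1 (chr19:56477250-56500666, plus strand) was at 9.49 CPM per kb against 0.0177 for ZNF667, which encodes a zinc finger protein and had 17, 4, 0 and 18 counts in vector replicates 2 and 3 and LGP2 replicates 2 and 3. AGAP2-AS1 was at 17.3 CPM per kb against 0.276 for AGAP2, which encodes a GTPase-activating protein. CKMT2-AS1 was at 2.82 against 0.0483 for CKMT2, the muscle mitochondrial creatine kinase, and CD27-AS1 at 7.42 against 0.159 for CD27, a receptor of lymphocytes. TP73-AS1 was at 2.91 CPM per kb and TP73, of the p53 family, at 0.489, while OIP5-AS1 (8.68) was close to OIP5 (10.8). MIF-AS1 lay below its partner, at 28.3 CPM per kb against 493 for MIF.

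The comparison of LGP2 overexpression with vector asks how LGP2 acts in glioma cells. No antisense RNA and no sense partner passed the test of LGP2 overexpression against vector. By the quasi-likelihood test of edgeR at an adjusted p under 0.05, 0 of 458 antisense RNAs and 0 of 457 partners were called, against 3 of all 17863 genes (0.0168%). The smallest adjusted p was 0.341 among antisense RNAs and 0.937 among partners. At an unadjusted p under 0.05 there were 15 antisense RNAs (3.28%), 4 higher and 11 lower, and 27 partners (5.91%), 20 higher and 7 lower, against 4.46% of all genes, 3% higher and 1.46% lower. DESeq2 called 1 antisense RNA, TMEM51-AS1, and 0 partners, against 0.123% of all genes, and limma-voom called 0 of each, against 0.0336%. An exact permutation test of 2 libraries against 2 cannot go below p = 0.333. These calls depended on the vector libraries. Without vector replicate 2, 1 of 484 antisense RNAs and 1 of 461 partners were called, against 78 of 18677 genes (0.418%). Without vector replicate 3, 3 of 484 antisense RNAs (TMEM51-AS1, LIMD1-AS1 and STARD4-AS1) and 15 of 461 partners were called, against 432 of 18677 genes (2.31%). These are fits that leave a single vector library and take the spread from the LGP2 pair.

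The fold changes of antisense RNAs were centred near 0, and most of these RNAs were measured at low levels. Log2 fold changes were above 0 for 204 of the 458 and below 0 for 254 (all genes: 48.7% above, 51.3% below), and their median was -0.049, beside -0.008 for all genes and -0.0097 for partners. The 2 groups did not overlap for 62 antisense RNAs higher with LGP2 (13.5%) and 99 lower (21.6%), against 16.7% and 16.5% of all genes. The median SE was 0.56 for antisense RNAs, 0.233 for all genes and 0.194 for partners. A 2-fold change, up or down, lay outside the 95% interval for 125 antisense RNAs (27.3%), against 61.1% of all genes and 373 partners (81.6%).

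The medians differed by level. In bins chosen after the values were seen, the 149 antisense RNAs under 0.5 CPM had a median log2 fold change of -0.20, the 155 between 0.5 and 2 CPM -0.061 and the 154 at 2 CPM or more -0.025. All genes in the same bins had medians of 0.03, 0.018 and -0.012. Groups did not overlap, with LGP2 lower, for 26.8%, 20% and 18.2% of the antisense RNAs in these bins, beside 16.5%, 14.7% and 16.8% of all genes. The median SE in these bins was 1.07, 0.564 and 0.285 for antisense RNAs and 1.09, 0.597 and 0.192 for all genes. It was therefore close to that of other genes in the lower bins, and in the highest bin the median level was 5.59 CPM for antisense RNAs and 27.2 CPM for all genes.

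**Figure D2:**
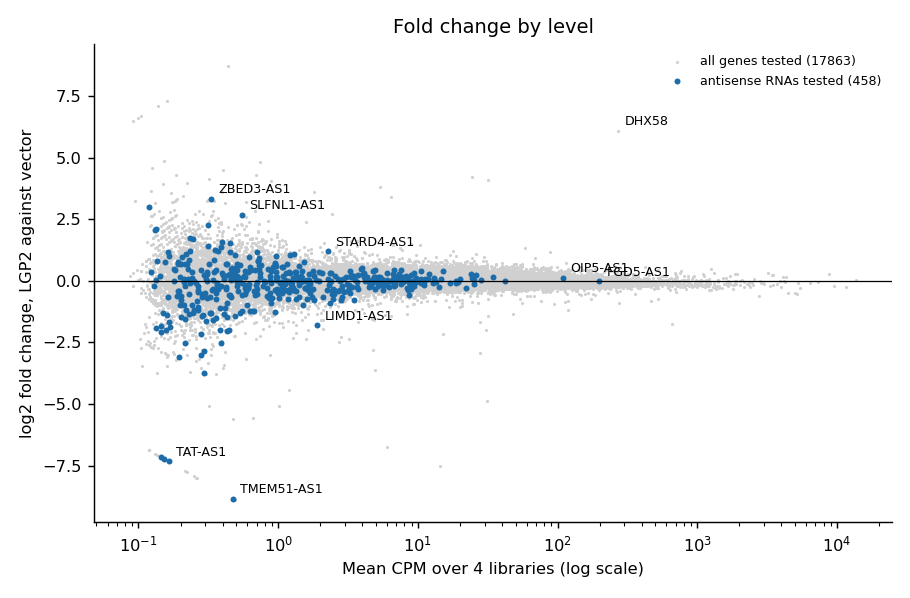
Log2 fold change of LGP2 overexpression against vector (vertical) by mean CPM over 4 libraries (horizontal, log scale) for 458 antisense RNAs (blue) and all 17863 genes tested (grey). The blue points spread widest at low levels, TMEM51-AS1 at -8.85 is the lowest, and FGD5-AS1 and OIP5-AS1 lie near 0.

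Several antisense RNAs had no count at all in the LGP2 libraries. TMEM51-AS1 (chr1:15111815-15153237, minus strand), named after a gene for a transmembrane protein, had 69 and 46 counts with vector and 0 and 0 with LGP2. Against a floor of 3 counts per library it was at least 19.0-fold lower with LGP2. Its adjusted p was 0.341 by edgeR and 0.00356 by DESeq2, the range over its alternatives was 0.000583 (edgeR without vector replicate 3) to 1.0, and the fitted log2 fold change of -8.85 is no bound. In GENCODE 29, the starts of TMEM51-AS1 and TMEM51 lie 705 bases apart, while the RefSeq start in the printed window lies elsewhere. TMEM51 itself had 20.3 and 18.6 CPM against 21.2 and 14.8 CPM, a log2 fold change of -0.11 (SE 0.22). The sense gene therefore overlapped between groups where the antisense RNA did not. Of the GENCODE 29 exon bases of TMEM51-AS1, 47.1% (3705 bases) lie under exons of KAZN and TMEM51 on the other strand. Only 253 bases are shared with exons of TMEM51, and the values of KAZN were not set beside those of TMEM51-AS1.

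The other members at 0 in both LGP2 libraries had few counts in the vector libraries. TAT-AS1 had 19 and 21 counts there and was at least 6.62-fold lower with LGP2. CPB2-AS1 had 14 and 23 (at least 6.13-fold) and ADD3-AS1 19 and 16 (at least 5.79-fold). These folds, like that of TMEM51-AS1, take the vector mean without its own error. The adjusted p by edgeR was 0.963 for TAT-AS1, 0.963 for CPB2-AS1 and 0.998 for ADD3-AS1. LGALS8-AS1, with 18 and 9 counts (at least 4.47-fold), was not tested. All members at 0 with LGP2, TMEM51-AS1 among them, met the summed count only through the vector libraries, so their folds and counts are descriptions. Of the 458 tested antisense RNAs, 4 had no count in either LGP2 library and 0 had none in either vector library. Of all 17863 genes, 18 (0.101%) and 6 (0.0336%) had none. All of these lay under 0.5 CPM, where 4 of 149 antisense RNAs and 18 of 2961 genes had no count in either LGP2 library. Another low gene with this direction was the epithelial marker EPCAM, with summed levels of 1.68 and 0.181 CPM with vector and 0.0356 and 0 CPM with LGP2, the only row of its 3-gene marker list. Its part in these values was not tested. The remaining members at an unadjusted p under 0.05 and under 1 CPM, chosen after their values were seen, were TM4SF1-AS1 with 27 and 40 against 0 and 5 counts, SEPTIN4-AS1 with 32 and 29 against 7 and 0, PARD6G-AS1 with 51 and 30 against 6 and 8, SLFNL1-AS1 with 10 and 8 against 31 and 89, and ZBED3-AS1 with 7 and 0 against 47 and 24. Each of these reached 20 counts only through the group where it is higher, and none passed after adjustment.

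Among antisense RNAs of 1 CPM or more whose groups did not overlap, LIMD1-AS1 (chr3:45679043-45689134, minus strand) had the largest negative fold change. It had 3.06 and 2.83 CPM with vector and 0.978 and 0.722 CPM in the LGP2 libraries, a log2 fold change of -1.79 (SE 0.41, 95% interval -2.7 to -0.89), with an adjusted p of 0.895 by edgeR. Groups that do not overlap were a condition for this choice. Every fit that left out a library kept this direction, which that condition makes near certain, so it adds no support. LIMD1, whose protein is a scaffold of the Hippo pathway, had 51.1 and 60.7 against 54.6 and 51.5 CPM, and its groups overlapped. LIMD1-AS1 lies tail to tail with LIMD1, and 67.1% of its exon bases lie under exons on the other strand. SACM1L, the neighbour on that strand, which encodes a phosphoinositide phosphatase, had a log2 fold change of 0.20 (SE 0.20).

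Smaller differences of the same direction were seen in members with diverse partners. ASH1L-AS1, beside a gene for a histone methyltransferase, had 2.02 and 1.96 CPM with vector and 1.05 and 0.968 CPM with LGP2, a log2 fold change of -0.98 (SE 0.43). COA6-AS1, which starts 137 bases from COA6, a factor of cytochrome c oxidase assembly, had 2.39 and 3.77 against 1.55 and 1.71 CPM (-0.92, SE 0.38, and -0.55 without vector replicate 3), and COA6 itself 41.4 and 42.7 against 33.5 and 36.9 CPM (-0.26, SE 0.16). HLA-F-AS1, at a non-classical HLA class I gene, had 3.73 and 5.14 against 2.36 and 2.73 CPM (-0.80, SE 0.32). In these 3 members the unadjusted p was 0.046, 0.0356 and 0.0312, and none passed after adjustment (adjusted p = 0.998 each by edgeR). RASAL2-AS1, TRHDE-AS1 and IL6-AS1 followed, with log2 fold changes of -0.79, -0.77 and -0.72 and intervals that included 0. Their partners RASAL2 (a Ras GTPase-activating protein) and TRHDE (a peptidase that degrades thyrotropin-releasing hormone) had log2 fold changes of -0.06 and 0.15.

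Among antisense RNAs of 1 CPM or more whose groups did not overlap, the largest positive fold change was that of STARD4-AS1 (chr5:111512226-111739726, plus strand), whose start lies 364 bases from that of STARD4, a cholesterol transfer protein. It had 0.691 and 2.06 CPM with vector and 2.74 and 3.61 CPM in the LGP2 libraries, a log2 fold change of 1.21 (SE 0.50, unadjusted p = 0.0348, adjusted p = 0.998 by edgeR). The groups did not overlap, but the vector libraries differed from each other, and the log2 fold change was 0.63 without vector replicate 2 and 2.19 without vector replicate 3. STARD4 had 9.23 and 11.2 against 10.4 and 14.8 CPM, with groups that overlapped. FOXN3-AS1, inside a gene for a forkhead repressor, had 0.971 and 0.692 against 1.60 and 1.89 CPM (1.07, SE 0.48), and SGMS1-AS1, at a sphingomyelin synthase gene, 0.757 and 0.823 against 1.40 and 1.84 CPM (1.04, SE 0.49). TM4SF19-AS1, STX18-AS1, MRPL23-AS1, SOCS2-AS1 and KCTD21-AS1 had log2 fold changes of 0.78, 0.61, 0.55, 0.51 and 0.47, each with an interval that included 0. None of these members passed after adjustment.

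**Figure D3:**
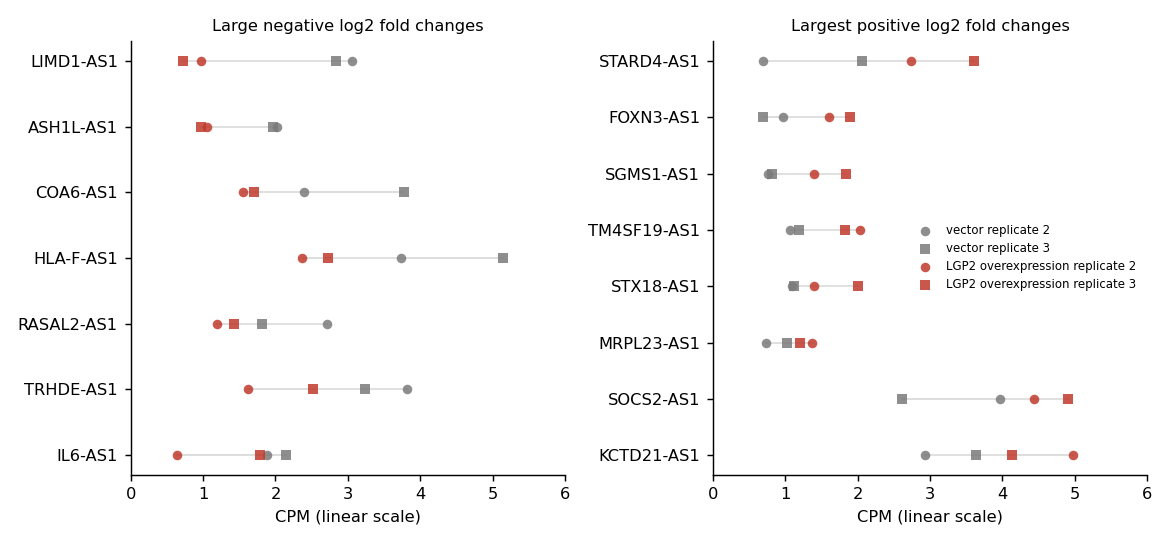
CPM (horizontal, linear scale) in each of the 4 libraries for 7 antisense RNAs with large negative (left) and the 8 with the largest positive (right) log2 fold changes among those of 1 CPM or more whose groups do not overlap; grey is vector, red LGP2 overexpression, circles replicate 2 and squares replicate 3. LIMD1-AS1 shows the widest gap between groups of the 15 shown, from 0.978 to 2.83 CPM, while the IL6-AS1 groups are separated only by 1.78 and 1.88 CPM.

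Fold changes of antisense RNAs and their sense partners showed little relation across pairs. Of the 421 pairs with both tested, both lay above 0 in 89, both below in 126, the antisense RNA above and the sense gene below in 93, and the reverse in 113. Spearman's rho was 0.043 and Pearson's r 0.002 across these pairs, and both were 0.053 across the 202 pairs with both genes at 1 CPM or more. These are descriptions, since pairs share the 4 libraries and are no replicates. The median difference of antisense minus sense log2 fold change was -0.098. By arrangement, it was -0.207 where the sense gene lay inside the antisense gene, -0.187 for antisense RNAs inside the sense gene, -0.146 for head-to-head pairs apart, -0.044 for head-to-head pairs that overlap and -0.043 for overlapping tail-to-tail pairs, with rho between -0.061 and 0.112.

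**Figure D4:**
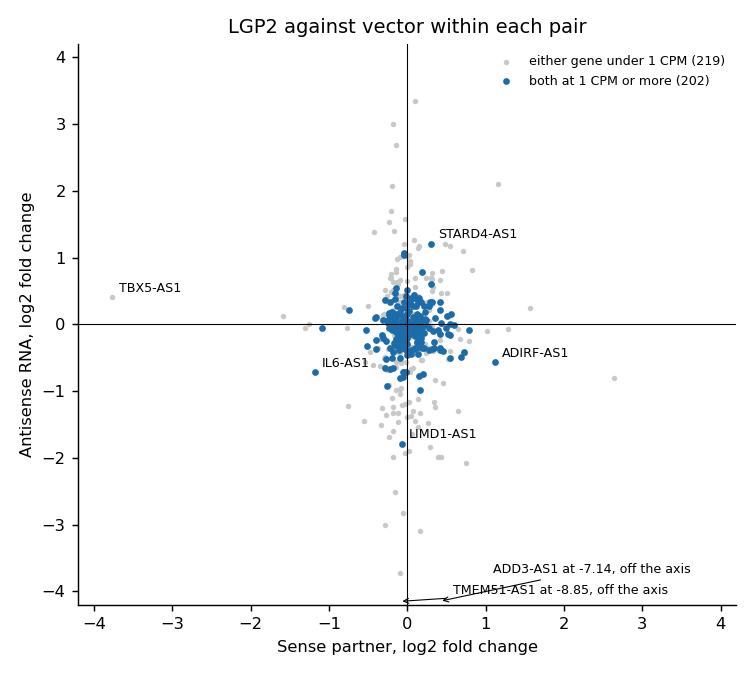
Log2 fold change of each antisense RNA (vertical) against that of its sense partner (horizontal) for the 421 pairs with both tested, in blue where both genes reached 1 CPM. The points form a cloud around 0 with no diagonal, and TMEM51-AS1 at -8.85 and ADD3-AS1 at -7.14 lie below the axis.

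The pairs with the largest differences between partners, with both genes at 1 CPM or more, involved varied functions. LIMD1-AS1 and ASH1L-AS1 were among the 4 most negative, with LIMD1 at -0.07 and ASH1L at 0.16. The others were ADIRF-AS1 (-0.57), whose partner ADIRF, an adipogenesis regulatory factor, was at 1.12 from 0.971 and 0.510 against 2.86 and 0.369 CPM, and FGF14-AS2 (-0.49, and 0.03 without vector replicate 2), whose partner FGF14, a fibroblast growth factor homologue of neurons, was at 0.68. Both values of that pair rest on LGP2 replicate 2: without it the log2 fold change was -0.0018 for ADIRF-AS1, with 9.71 and 11.1 against 3.61 and 10.4 CPM, and -1.0 for ADIRF, so that the difference changed sign. Of the most positive pairs, SGMS1 and FOXN3 were each at -0.04, AGAP2 was at -0.74 (0.23 without vector replicate 3) beside 0.22 for AGAP2-AS1, and TTC28, a tetratricopeptide repeat gene, was at -1.09 (-0.28 without vector replicate 3) beside -0.06 for TTC28-AS1.

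Among sense partners, the cytokine gene IL6 and several regulators had sizeable fold changes and did not pass. IL6 had 259 and 69.4 CPM with vector and 61.0 and 83.9 CPM in the LGP2 libraries, a log2 fold change of -1.18 (SE 0.44) that was 0.06 without vector replicate 2 and -1.84 without vector replicate 3. IL6-AS1 had 1.88 and 2.14 against 0.640 and 1.78 CPM, so the library highest in IL6 was not the highest in its antisense RNA. RASSF8, a Ras-association domain gene, had 18.3 and 24.8 against 34.1 and 40.4 CPM (0.79, SE 0.21), and RASSF8-AS1 10.7 and 15.7 against 12.2 and 12.9 CPM. DICER1, the nuclease that makes microRNAs, had 6.71 and 7.08 against 10.2 and 12.8 CPM (0.74, SE 0.23), while DICER1-AS1, 365 bases from it start to start, had 1.07 and 1.22 against 0.889 and 0.814 CPM (-0.43, SE 0.52). ZEB1, a repressor of epithelial genes, had 11.3 and 16.9 against 18.3 and 22.7 CPM (0.54, SE 0.23, and 0.28 without vector replicate 2), and ZEB1-AS1 3.55 and 4.12 against 2.56 and 2.83 CPM (-0.51, SE 0.31). In the DICER1 and ZEB1 pairs the groups did not overlap for either gene, in opposite directions, and neither gene passed. TBX5, a T-box factor, had 45 and 37 against 0 and 6 counts, and TBX5-AS1 63 and 92 against 75 and 133. Apart from IL6 and IL6-AS1, these pairs were chosen after their values were seen.

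The 4 lists below were set beside the class, each written with earlier results of these data known. Of the 18 antisense RNAs listed at innate immune loci, 10 were tested, 3 above 0 and 7 below, with a median of -0.34, and 0 were called. MAP3K14-AS1, at the gene for the NF-kB-inducing kinase, had 8.03 and 8.0 against 8.59 and 6.91 CPM, and PSMB8-AS1, at an immunoproteasome gene, 6.25 and 8.35 against 7.70 and 5.18 CPM, with overlapping groups. HLA-F-AS1 was the only one of the 10 at an unadjusted p under 0.05 by edgeR, beside 3.28% of antisense RNAs and 4.46% of all genes. TRAF3IP2-AS1 was at -0.50 (SE 0.42) and CARD8-AS1 at 1.15 (SE 0.84). Of the 18 listed at HOX clusters, 5 were tested, with a median of -0.20. Of these, HOXA11-AS (-0.72) and HOXC13-AS (-1.53) carry no number after -AS and are not members. The members were HOXA-AS2 (2.25, SE 1.11), HOXD-AS2 (0.18, SE 0.23) and HOXC-AS3 (-0.20, SE 0.68). HOXD-AS2 had the highest level at 7.17 and 6.42 against 7.95 and 7.42 CPM, ahead of HOXC-AS3 at 0.724 and 0.576 against 0.551 and 0.584 CPM. Of the 45 antisense RNAs listed as studied in cancer, 29 were tested, 17 above 0 and 12 below, with a median of 0.05, values between -0.72 and 0.63 and 0 called. All of these medians stand beside -0.008 for all genes and -0.049 for the antisense RNAs tested.

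The genes of nuclear RNA decay, which degrade many antisense transcripts, had a median log2 fold change of 0.015. Of 33 tested, 17 lay above 0 and 16 below, with a range of -0.29 to 0.56, and 0 were called. XRN2, a nuclear 5′ to 3′ exonuclease, had 215 and 229 against 253 and 237 CPM, and SMG5, a factor of nonsense-mediated decay, 141 and 108 against 111 and 114 CPM. MTREX, the helicase that feeds RNA to the nuclear exosome, had 43.4 and 47.1 against 56.4 and 76.6 CPM (log2 fold change 0.56, SE 0.17), and XRN1, the cytoplasmic 5′ to 3′ exonuclease, 11.8 and 16.1 against 19.7 and 19.8 CPM (0.50, SE 0.21). Both were higher in each LGP2 library than in each vector library, and both were under 0.05 in unadjusted p, but neither passed after adjustment (adjusted p = 0.998 each by edgeR).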

How the data were processed

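RNA was sequenced from 4 T98G libraries, 2 with vector and 2 overexpressing LGP2. The deposited values are whole-number read counts for each gene symbol, without coordinates. Libraries came from an mRNA kit, per the labels. Human symbols stand beside the mouse build mm10 in the submitters' processing notes. Not given in the sources used here are the aligner, the counter, the annotation and whether strand was used. No other column of per-sample values was present.

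The main test was edgeR's quasi-likelihood test (edgeR 4.0.16, R 4.3.3, TMM scaling, filterByExpr by group, two-sided, no covariate), on 17863 genes, with Benjamini-Hochberg adjustment over all of them and calls at an adjusted p under 0.05. SEs were taken from the F statistic. DESeq2 1.42.0 and limma-voom 3.58.1 were alternatives, with other scalings, filters, a replicate block and leaving out each library. The procedure was also tested on simulated data. Level per length is mean CPM per kb of GENCODE 29 exon. For a group at 0, folds use a floor of 3 counts in each library, which covers only the counting error of that group. The common biological coefficient of variation was 25.9%.

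Members and lists were chosen with earlier results of these data known. Genes were named by rule: DHX58, called members or partners, the 6 highest antisense RNAs, up to 8 with the largest positive and negative fold change at 1 CPM or more with groups that do not overlap, the 4 largest pair differences each way, up to 2 highest members of each list, and their partners. A member that this rule names and its partner are not reported here. All other names, the printed promoters and the level bins were chosen after values were seen.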

Additional observations from a re-analysis of the deposited data

How the results depend on the processing

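Counts of calls and the sign of the partner median depended on single libraries, and the antisense median and the pair difference were above 0 with the 5 CPM filter and below 0 in every other setting tried. The cause was not tested. With each library left out in turn, genes called, LGP2 overexpression against vector, ranged from 2 to 432 beside 3, antisense RNAs called from 0 to 3 beside 0, and sense partners called from 0 to 15 beside 0. The median log2 fold change of antisense RNAs ranged from -0.083 to -0.023, the median log2 fold change of sense partners from -0.019 to 0.022, and the median antisense minus sense difference in log2 fold change from -0.15 to -0.047. Such fits leave a single library in 1 group and assume that it varies like the other group. The calls for all genes were 8 with the replicate block, 1 with no filter, 6 at 5 CPM or more in 2 libraries, 22 by DESeq2 and 6 by limma-voom. DESeq2 called 1 antisense RNA, and every other setting with all libraries called 0 antisense RNAs and 0 sense partners. The median log2 fold change of antisense RNAs was 0.00071 at 5 CPM or more in 2 libraries (93 left), -0.071 without members whose exons overlap another gene's (104 left) and -0.025 at 2 CPM or more, a setting added after seeing the data. The median antisense minus sense difference in log2 fold change was 0.017 at 5 CPM or more in 2 libraries and -0.057 for members of 100 counts or more. Same-numbered libraries did not deviate together (correlation 0.0312), and with the replicate block the antisense median was -0.048. SOCS2, at 0.0, was -0.00039 with the replicate block. Precision is limited by low counts, since 274 members were under 1 CPM.

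Log2 fold changes of some named genes changed sign when a library was left out. Their ranges were: FGD5-AS1 (-0.13 to 0.12), OIP5-AS1 (-0.07 to 0.34), MIF-AS1 (-0.18 to 0.13), TP73-AS1 (-0.16 to 0.3), TTC28-AS1 (-0.14 to 0.02), FGF14-AS2 (-0.88 to 0.03), MAP3K14-AS1 (-0.21 to 0.1), PSMB8-AS1 (-0.5 to 0.08), SMG5 (-0.33 to 0.05), ZNF667 (-6.37 to 1.06), TP73 (-0.18 to 0.63), AGAP2 (-1.31 to 0.23), FOXN3 (-0.28 to 0.25), SGMS1 (-0.35 to 0.21), MRPL23 (-0.33 to 0.07), SOCS2 (-0.26 to 0.23), LIMD1 (-0.19 to 0.05), ASH1L (-0.11 to 0.5), HLA-F (-0.19 to 0.01), RASAL2 (-0.18 to 0.07), TRHDE (-0.13 to 0.38), IL6 (-1.84 to 0.06), ADIRF (-1.0 to 1.95), PSMB8 (-0.07 to 0.0021), TMEM51 (-0.39 to 0.13), SACM1L (-0.06 to 0.53) and RASSF8-AS1 (-0.32 to 0.22).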
